A study of Mus musculus with 69 samples.

Results

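Instillation of 18 µg of titanium dioxide, the lowest dose of the series, was followed on day 1 in the lungs of 10 mice. The group pools 5 arrays of NRCWE-001, the unmodified particle, and 5 arrays of NRCWE-002, the modified particle described in the study as positively charged. These 10 of the 69 arrays were picked out by their titles and not by a measured value. The choice of this group was made with earlier results of these data known. The 10 arrays were compared with the 5 arrays of the vehicle group of day 1. All mice were female C57BL/6 animals, obtained at 5 to 7 weeks of age and acclimatised for 1 to 3 weeks. Each received a single intratracheal instillation, of particles or of vehicle alone. The vehicle is given as water in the array titles and as water with 2% serum in the design text. Lungs were collected 24 h later as frozen tissue, and 1 mouse was used per array, without pooling. Lung RNA in Cy5 was hybridised together with a Universal Mouse Reference RNA in Cy3, with no dye swap, so values are open to dye bias. A level below is the log2 ratio of lung to reference RNA, where 0 is the level of the reference and not absence. A difference is 18 µg minus vehicle on the same log2 scale unless another is named. A gene was called when its Benjamini-Hochberg adjusted p in limma, over all 17628 genes tested, was below 0.05.

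Inhaled or instilled particles meet the alveolar macrophages and the epithelium first. These cells release cytokines and chemokines that draw neutrophils into the lung, and at sufficient doses the lung also transcribes acute phase genes such as the serum amyloid A family, whose proteins are secreted into blood and lining fluid. Immediate early genes are a different layer: they are transcribed within minutes of many stimuli, from growth factors to handling stress. Glucocorticoids, the adrenal stress hormones, act through a nuclear receptor and induce another set, among them the phosphatase gene Dusp1 and the clock gene Per1.

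The lung markers were high on all 15 arrays. Sftpc, the surfactant protein C gene of alveolar type 2 cells, lay between 7.08 and 7.73, and Scgb1a1, the club cell secretoglobin, between 5.64 and 7.62. Replicates 2 and 5 of NRCWE-001 stood apart. Acta1, the skeletal muscle actin, reached 6.42 and 4.79 on them, against -2.53 to -2.15 on the vehicle arrays. Krt4, a keratin of stratified squamous epithelium, was at 6.60 on replicate 2 and between -0.02 and 0.17 on the vehicle arrays. The mean of the 13 skeletal muscle markers ran from -0.70 to -0.05 on the vehicle arrays, from -0.43 to 4.25 with NRCWE-001 and from -0.75 to -0.40 with NRCWE-002. The 14 squamous markers averaged -0.36 to -0.26, -0.37 to 3.54 and -0.37 to -0.22. The median correlation of NRCWE-001 replicate 2 with the other arrays, over genes, was 0.873, against 0.952 to 0.979 for the other 14. Values without both arrays are given below for several lists and genes. In whole tissue, fewer cells of a type and less RNA per cell cannot be told apart.

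**Figure D1:**
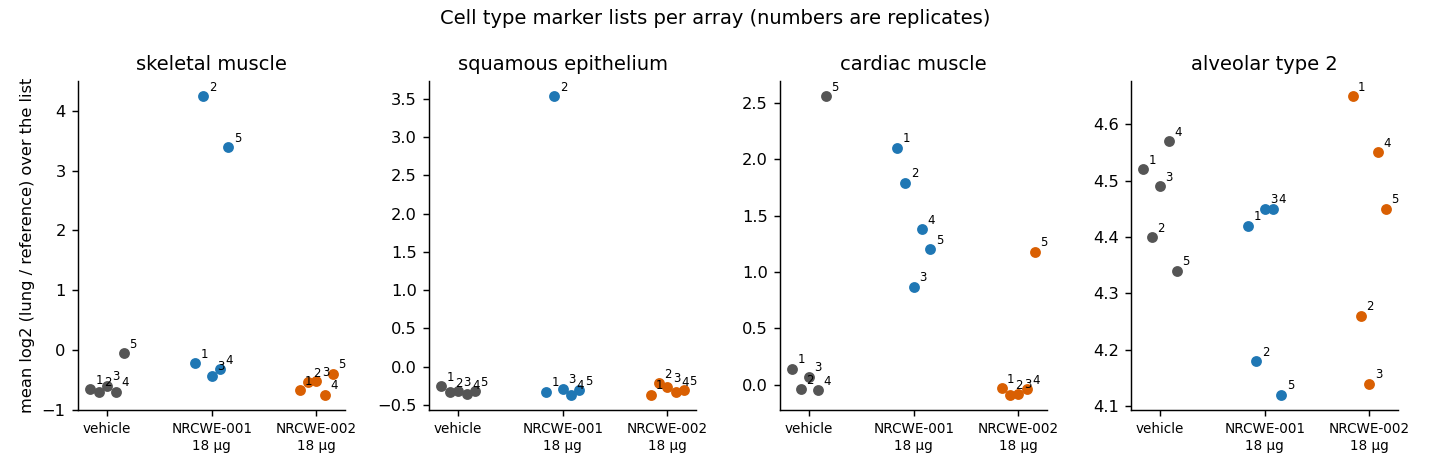
Mean level (log2 ratio of lung to reference) of the skeletal muscle, squamous epithelium, cardiac muscle and alveolar type 2 markers on each of the 15 arrays, with 1 point per array and replicates numbered. NRCWE-001 replicates 2 and 5 stand at 4.25 and 3.39 for skeletal muscle, and replicate 2 at 3.54 for squamous epithelium, while the alveolar type 2 mean stays between 4.12 and 4.65.

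No gene was called between 18 µg and vehicle on day 1. Of 17628 genes 0 were called by limma (0%), and the smallest adjusted p was 1. Without adjustment, 437 genes (2.48%) had a p below 0.05, 249 of them higher (1.41%) and 188 lower (1.07%). That unadjusted count was 1138 in a fit of the compared arrays alone, 1058, 899 and 918 with the slide as a fixed block, the slide as a random block and the scan day as a block, and 282 without the 2 arrays of high muscle markers. The median difference over all genes was 0.00, with a median standard error of 0.0942, and for 98.8% of genes the 95% interval of the difference lay within -1 to 1. The genes that led this comparison are described below by their arrays, and none of them was called.

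The smallest unadjusted p of all genes belonged to Cyp1a1, the cytochrome P450 gene induced through the aryl hydrocarbon receptor. Cyp1a1 was at 1.26, 1.72, 1.3, 1.79 and 1.52 on the 5 vehicle arrays, and the 10 exposed arrays ran from 0.38 through a median of 0.61 to 1.75. The groups overlapped, since 8 of 10 exposed arrays lay below all vehicle arrays and the other two, NRCWE-001 replicates 3 and 4, did not. The difference was -0.73 ± 0.17 (SE), a ratio of 0.602, with an unadjusted p of 8.46e-05 in limma. Efna1, the ligand ephrin A1, was at 2.15, 2.30, 2.10, 1.85 and 2.23 with vehicle and at 1.5 to 1.98, median 1.65, after exposure. It was lower by 0.48, and 9 of 10 exposed arrays lay below every vehicle array. Tent5b, a non-canonical poly(A) polymerase gene, was at 1.41, 1.28, 1.26, 1.19 and 1.07 with vehicle and at 1.41 to 2.29, median 1.60, after exposure. Its difference was 0.46, with 9 of 10 exposed arrays above every vehicle array. Eml4, a microtubule-associated protein gene, was lower by 0.24, with 9 of 10 arrays below. These genes were among the 8 smallest p values and were singled out after their values were seen.

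**Figure D2:**
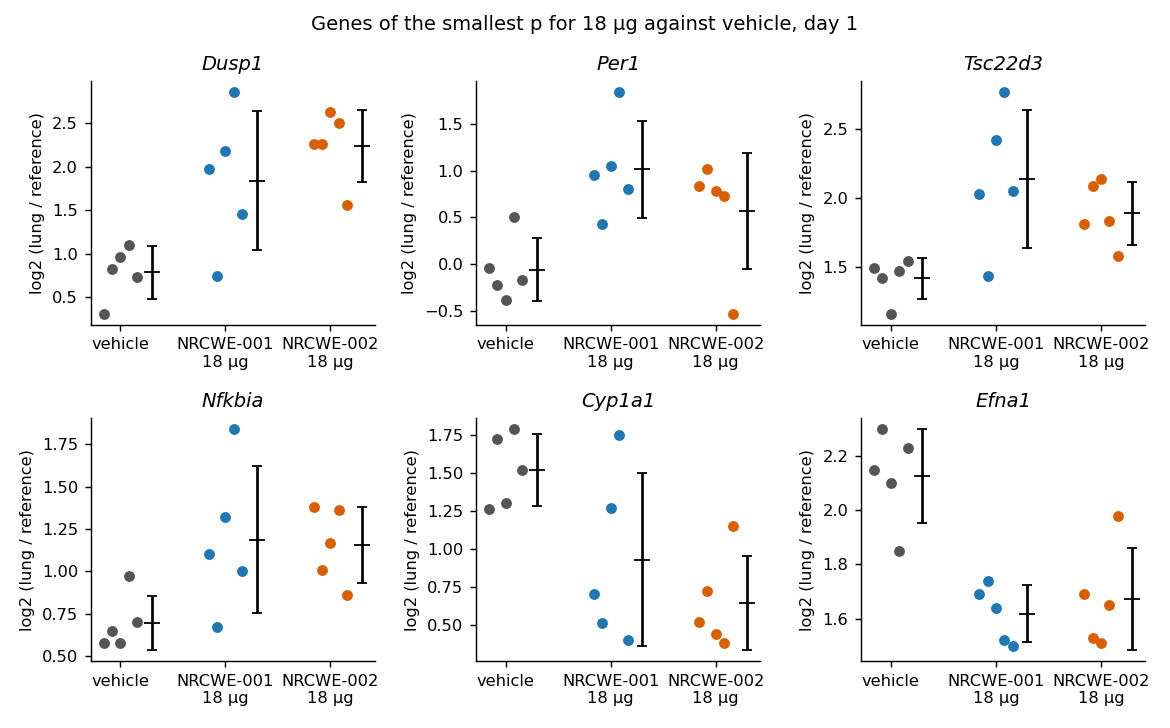
Levels (log2 ratio of lung to reference) of Dusp1, Per1, Tsc22d3, Nfkbia, Cyp1a1 and Efna1 on each of the 5 vehicle, 5 NRCWE-001 and 5 NRCWE-002 arrays, with the group mean and SD. Dusp1, Per1, Tsc22d3 and Nfkbia have 9, 8, 9 and 8 of 10 exposed arrays above all vehicle arrays, and Cyp1a1 and Efna1 have 8 and 9 of 10 below them.

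Of 18 genes known to be induced by glucocorticoids, listed with earlier results of these data known, 17 were measured. The difference was above 0 in 16 of them, with a median of 0.48 against 0.00 over all genes, and 7 had an unadjusted p below 0.05, all higher, where 1.41% of all genes did. None was called. The median was 0.39 without the 2 arrays of high muscle markers and 0.49 with the slide as a block. Dusp1, the phosphatase that switches off MAP kinases, was at 0.31, 0.82, 0.96, 1.1 and 0.73 with vehicle. The exposed arrays ran from 0.74 through a median of 2.22 to 2.86, and all but NRCWE-001 replicate 2 lay above every vehicle array. The difference was 1.26 ± 0.34 (SE), a ratio of 2.39, with an unadjusted p of 0.000489 in limma. It was 1.51 without the 2 arrays of high muscle markers. Per1, a repressor of the circadian clock, was at -0.04, -0.22, -0.38, 0.50 and -0.17 with vehicle and at -0.53 to 1.84, median 0.82, after exposure. Its groups overlapped in NRCWE-001 replicate 2 and in NRCWE-002 replicate 5, which held the lowest value of all 15 arrays. Per1 differed by 0.85 ± 0.24 (SE).

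Tsc22d3, which encodes the anti-inflammatory protein GILZ, was at 1.49, 1.42, 1.16, 1.47 and 1.54 with vehicle and at 1.43 to 2.77, median 2.04, after exposure. It was higher by 0.60, and 9 of 10 exposed arrays lay above every vehicle array. Nfkbia encodes the inhibitor that holds NF-kB in the cytosol. It was at 0.58, 0.65, 0.58, 0.97 and 0.70 with vehicle and at 0.67 to 1.84, median 1.13, after exposure, a difference of 0.47 with 8 of 10 arrays above. Errfi1, a feedback inhibitor of the EGF receptor, differed by 0.78 with 8 of 10 above, Cdkn1a, the p21 cell cycle inhibitor, by 0.48 with 6 of 10 above, and the kinase gene Sgk1 by 0.37 with 6 of 10 above. The unadjusted p of Cdkn1a was not below 0.05 without the 2 arrays of high muscle markers. The remaining members with no unadjusted p below 0.05 included Ddit4, at 0.61, and Fkbp5, the classical hormone-responsive immunophilin, at 0.13. Lcn2, the lipocalin that binds bacterial siderophores, stands in this list and among the acute phase genes, and differed by 0.24. Cdkn1c was the single lower member, at -0.17.

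Among the immediate early genes 23 of 25 were measured and 16 were higher, with a median difference of 0.25. That list too was chosen with earlier results of these data known. Unadjusted p values below 0.05 were found for 8 higher members and 1 lower member, where 1.41% and 1.07% of all genes did, and none was called. Without the 2 arrays of high muscle markers the median was 0.31. Dusp1 belongs to this list too. Nr4a1, an orphan nuclear receptor, was at -1.24, -0.84, 0.23, -0.10 and -1.03 with vehicle and ran from -1.03 through 0.56 to 1.49 after exposure. Only 6 of 10 exposed arrays lay above every vehicle array, and the difference of 1.03 ± 0.35 (SE) came mostly from NRCWE-002, whose mean was 1.02 against -0.14 for NRCWE-001. The Nr4a1 difference was 1.29 without the 2 arrays of high muscle markers. Egr1, a zinc finger transcription factor, differed by 0.86 with 5 of 10 arrays above, and Klf4 by 0.73 with 6 of 10 above. Nr4a2 differed by 0.55 with 8 of 10 above and Fos, a subunit of AP-1, by 0.55 with 6 of 10 above. Klf6 was at 0.27 and Zfp36, which encodes an mRNA-destabilising protein, at 0.25. Ier5 went the other way, at -0.39 with 7 of 10 exposed arrays below every vehicle array. Jun, Jund, Fosb and Myc were at -0.06, -0.14, -0.02 and -0.04.

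The promoters of Dusp1 and Nr4a1 are shown because these members had the largest differences of the list, and because the core of the cyclic AMP response element is a textbook feature of such promoters. The 250 bases before the RefSeq start in GRCm38.p6 lie at chr17:26508473-26508722 on the minus strand for Dusp1 and at chr15:101266596-101266845 on the plus strand for Nr4a1. Capitals mark TGACG on either strand, and the run TGACGTCA in Dusp1 holds a pair of overlapping matches.
Dusp1: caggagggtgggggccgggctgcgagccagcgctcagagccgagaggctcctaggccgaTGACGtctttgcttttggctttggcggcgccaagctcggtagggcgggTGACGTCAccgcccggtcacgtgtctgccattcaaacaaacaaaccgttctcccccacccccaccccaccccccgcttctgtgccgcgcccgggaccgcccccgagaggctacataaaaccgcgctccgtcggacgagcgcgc
Nr4a1: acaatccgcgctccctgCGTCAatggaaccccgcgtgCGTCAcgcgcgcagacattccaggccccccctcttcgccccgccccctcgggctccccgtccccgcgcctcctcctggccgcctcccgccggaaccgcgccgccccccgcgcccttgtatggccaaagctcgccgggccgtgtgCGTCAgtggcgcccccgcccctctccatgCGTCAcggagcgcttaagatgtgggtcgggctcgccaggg
TGACG began 191, 143 and 140 bases before the start in Dusp1 and 233, 213, 69 and 40 bases before it in Nr4a1. It was present in 17.8% of 32851 promoters of this length, in 12 of 20 promoters of immediate early genes and in 3 of 15 of the glucocorticoid list. The full TGACGTCA was in 1.55% of all promoters. A match of letters is a description and not evidence of binding.

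In 23 genes (0.13% of those tested) the 10 exposed and the 5 vehicle arrays did not overlap, 14 with all exposed arrays above (0.0794%) and 9 with all below (0.0511%). Pim3, a serine/threonine kinase, was at -0.25, -0.39, -0.42, -0.36 and -0.45 with vehicle and at -0.24 to 0.80, median 0.20, after exposure. It differed by 0.59 ± 0.24 (SE), with the highest array in NRCWE-001 replicate 4. Herpud1, a component of the degradation machinery of the endoplasmic reticulum, was at 1.00, 0.97, 1.04, 1.06 and 0.99 with vehicle and at 1.08 to 1.73, median 1.35, after exposure. It differed by 0.35 ± 0.11 (SE). Ppp1r15a, which encodes the stress-induced phosphatase subunit GADD34, differed by 0.45, although its lowest exposed array, at -0.62, lay close to the highest vehicle array, at -0.64. Csrnp1, an AXIN1-induced nuclear protein, differed by 0.37, with its 3 probes between 0.11 and 0.87. Glul, glutamine synthetase, was at 2.11, 1.99, 2.03, 2.13 and 2.00 with vehicle and at 2.21 to 2.72, median 2.32, after exposure, a difference of 0.31. Ifrd1, an interferon-related developmental regulator, differed by 0.29, Sgsm3 by 0.30, the ribosome assembly factor Mdn1 by 0.25 and the zinc transporter Slc39a3 by 0.19. The probe of Gpr151, an orphan receptor, was well above background on none of the vehicle arrays and on 3 exposed arrays, so its difference from vehicle is not given.

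On the lower side Ccl4, the chemokine MIP-1β that draws monocytes and lymphocytes, was at -1.95, -1.66, -1.11, -1.91 and -1.76 with vehicle and at -2.85 to -2.13, median -2.40, after exposure. It differed by -0.75 ± 0.44 (SE), with a 95% interval of -1.63 to 0.13. Ifng, interferon gamma, was at 0.62, 0.80, 0.96, 0.56 and 0.58 with vehicle and at 0.31 to 0.43, median 0.37, after exposure, a difference of -0.33. Its exposed arrays spanned a narrower range than its vehicle arrays. Fli1, an ETS factor of endothelium and blood cells, differed by -0.46 and the myosin light chain gene Myl12a by -0.42. Zfp521, a zinc finger gene of progenitor cells, differed by -0.36, and Zbtb46, a factor of classical dendritic cells, by -0.15. The sulphotransferase gene Chst14 differed by -0.12 and the GTPase-activating gene Agap2 by -0.10. Olfr1377, an olfactory receptor, was well above background on no vehicle array and on 3 exposed arrays, so its difference is not given either, and its sign turned with the scanner software's processed signals. All of these 19 named genes, apart from Olfr1377 in that setting, had the same direction in each alternative processing tried. They were picked because their groups did not overlap, so leaving out a single array could not turn their direction.

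The acute phase genes were not called at 18 µg. Of 26 genes 25 were measured and 21 were higher, but the median difference was 0.11 and none had an unadjusted p below 0.05. With the slide as a block the median was 0.32 and 22 were higher, and without the 2 arrays of high muscle markers the median was 0.10. In the block fit 3 higher members had an unadjusted p below 0.05, as did 656 higher genes of all 17628. The mean of the list ran from 0.18 to 0.31 on the vehicle arrays, from 0.35 to 0.5 with NRCWE-001 and from 0.27 to 0.45 with NRCWE-002. Saa3, the serum amyloid A of the lung and other tissues outside the liver, was at -3.04, -3.36, -3.05, -3.78 and -3.36 with vehicle. After exposure it ran from -3.49 through a median of -2.48 to -0.37, with 8 of 10 arrays above every vehicle array and the top value in NRCWE-001 replicate 1. The difference was 1.00 ± 0.99 (SE), with a 95% interval of -0.98 to 2.99. That error was shared with the higher doses, where Saa3 varied from -3.94 to 5.14 between arrays. In a fit of the 15 arrays alone the standard error was 0.36, with an adjusted p of 0.727. An exact permutation test of the 15 arrays, two-sided, gave p = 0.0393 for Saa3. It was 1 of 11 single genes tested this way, and the smallest p that the 3003 assignments allow is 0.000333.

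Saa1 was at -0.75, -0.65, -0.56, -0.74 and -0.72 with vehicle and at -0.68 to -0.09, median -0.37, after exposure. It differed by 0.28, with 7 of 10 arrays above every vehicle array and p = 0.00932 in the exact permutation test. Its 2 probes differed by 0.07 and 0.50, and since Saa1 and Saa2 are near-identical copies, signal may be shared between them. Saa2 differed by 0.05, Lcn2 by 0.24 and Timp1, the metalloproteinase inhibitor, by 0.14. Among the single genes tested exactly, Hpx, which binds haem, gave p = 0.0726 and Il1b, the interleukin 1β gene, p = 0.133 in the exact permutation test. The exact permutation p was 0.262 for Orm2, 0.612 for Saa2, 0.188 for Lcn2, 0.33 for Timp1, 0.423 for ceruloplasmin, Cp, 0.271 for haem oxygenase, Hmox1, and 0.772 for the neutrophil chemokine Cxcl5. Orm2 was well above background on none of the vehicle and on 7 of the exposed arrays, and Cxcl5 on none and 3, so no difference from vehicle is given for either. This test takes the 15 arrays as exchangeable and takes no account of the slide.

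The next dose separated from 18 µg by the acute phase genes. Between 54 and 18 µg, a comparison that does not use the vehicle arrays, 8 genes rose (0.0454%) and none fell in this fit: Saa3, Saa1, Saa2, Lcn2, Timp1, Orm2, Noxo1 and Tnfrsf9. Saa3 ran from -3.94 through 2.03 to 4.65 on the 10 arrays of 54 µg and was higher than at 18 µg by 3.74 ± 0.81 (SE), with an adjusted p of 0.0481 in limma. Saa1 rose by 2.38 (adjusted p = 0.0192 in limma) and Saa2 by 1.85 (adjusted p = 0.00524 in limma). Lcn2 rose by 2.16 and Timp1 by 1.72, and Orm2, an acid glycoprotein well above background on 7 of the 10 arrays of 18 µg, by 1.63. Noxo1, an organiser of the NADPH oxidase Nox1, rose by 1.54 and Tnfrsf9, the costimulatory receptor 4-1BB, by 0.71. In each of these genes 8 or 9 of 10 arrays at 54 µg lay above all 10 arrays at 18 µg. The arrays of NRCWE-001 replicates 4 and 5 at 54 µg did not, apart from Noxo1 in replicate 5. Saa3 was at -3.68 and -3.94 on them and at 1.20 to 4.65 on the other 8.

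The call for these 8 genes depends on single arrays. It was left with 1 gene when NRCWE-001 replicate 1, 2 or 3, or NRCWE-002 replicate 1 or 4, of 54 µg was omitted. It grew to 37, 16 and 18 genes without NRCWE-001 replicate 4, NRCWE-001 replicate 5 and NRCWE-002 replicate 2 of that dose. A fit that adds the slide called 244 genes, the 8 included, with 168 higher and 76 lower. The slide as a random block gave 140 higher and 51 lower, and the scan day as a block 63 and 21. Of the acute phase list, 6 members rose between 18 and 54 µg.

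**Figure D3:**
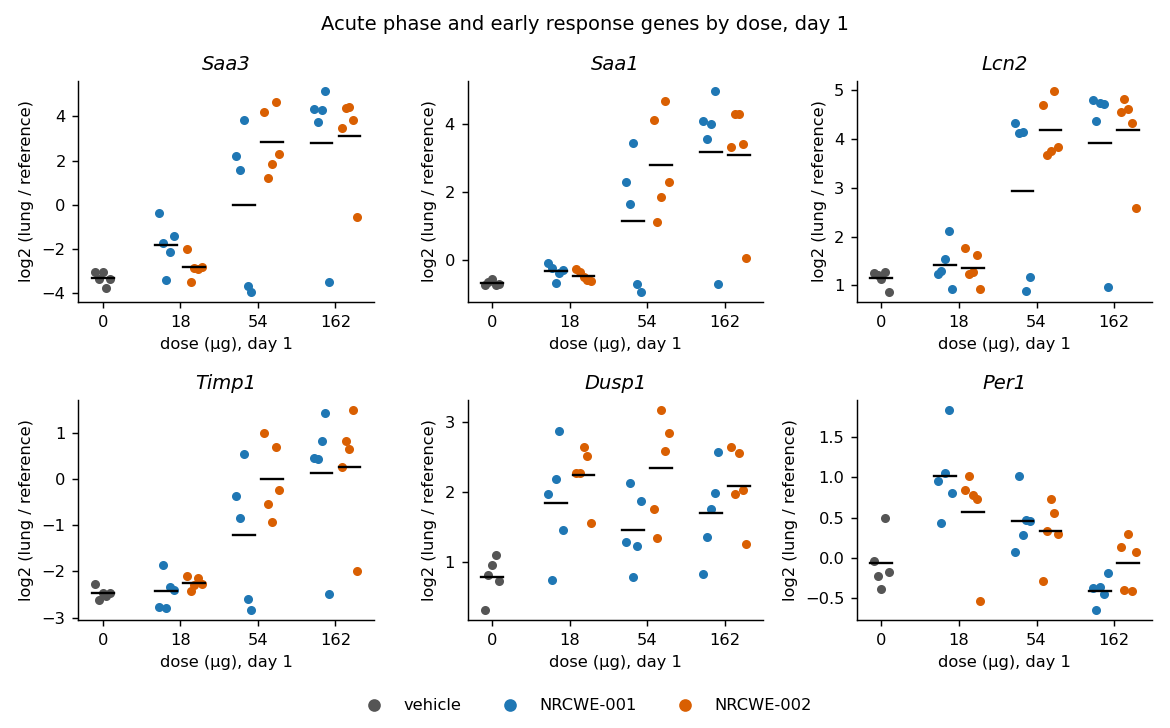
Levels (log2 ratio of lung to reference) of Saa3, Saa1, Lcn2, Timp1, Dusp1 and Per1 on day 1 at 0 (vehicle), 18, 54 and 162 µg. The particles are drawn side by side, with 1 point per array and a bar at the mean of each particle and dose. The 18 µg arrays of Saa3 reach no higher than -0.37 while 8 of 10 at 54 µg lie above that. With both particles pooled, Dusp1 is above vehicle at all doses by 1.26, 1.12 and 1.11.

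The promoters of the serum amyloid A genes are shown because these genes led the step from 18 to 54 µg. The C/EBP proteins, liver- and inflammation-associated transcription factors, bind motifs of this family. The 250 bases before the RefSeq start in GRCm38.p6 lie on chromosome 7, at chr7:46742981-46743230 on the minus strand for Saa1, chr7:46751583-46751832 on the plus strand for Saa2 and chr7:46715677-46715926 on the minus strand for Saa3. Capitals mark matches to TTNNGCAA on either strand.
Saa1: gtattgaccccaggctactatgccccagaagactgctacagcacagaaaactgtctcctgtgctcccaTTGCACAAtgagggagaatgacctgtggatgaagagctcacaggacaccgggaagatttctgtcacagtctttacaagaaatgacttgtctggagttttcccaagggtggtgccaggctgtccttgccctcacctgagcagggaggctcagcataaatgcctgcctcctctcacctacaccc
Saa2: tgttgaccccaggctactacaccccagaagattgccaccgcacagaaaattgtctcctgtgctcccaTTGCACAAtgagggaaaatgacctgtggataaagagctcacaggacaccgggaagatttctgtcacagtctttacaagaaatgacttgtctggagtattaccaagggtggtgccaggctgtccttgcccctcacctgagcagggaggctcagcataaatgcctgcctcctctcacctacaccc
Saa3: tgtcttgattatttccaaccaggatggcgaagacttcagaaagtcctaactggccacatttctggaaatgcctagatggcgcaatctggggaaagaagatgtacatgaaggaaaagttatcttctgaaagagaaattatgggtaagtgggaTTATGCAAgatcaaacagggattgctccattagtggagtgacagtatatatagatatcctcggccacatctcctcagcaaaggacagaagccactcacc
The match began 182, 183 and 99 bases before the start. Saa1 and Saa2 were 94.8% identical over this stretch, with 238 of 251 aligned columns, whereas Saa1 and Saa3 shared 50.2%. TTNNGCAA was present in 9.56% of all 32851 promoters, in 5 of the 8 genes that rose and in 12 of 20 promoters of acute phase genes.

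Between 162 and 18 µg 926 genes (5.25%) were called, 685 higher (3.89%) and 241 lower (1.37%). Of the acute phase list 17 of 25 rose and none fell. Saa3 rose by 5.27 ± 0.81 (SE), Saa1 by 3.53, the anion exchanger gene Slc26a4 by 2.71 and Lcn2 by 2.64. Cxcl5 rose too (adjusted p = 0.000111 in limma), but it was well above background on only 3 of the 10 arrays of 18 µg, so the size is not given. At 162 µg, NRCWE-001 replicate 5 lay in the range of the vehicle arrays, with Saa3 at -3.51 and Saa1 at -0.70. NRCWE-002 replicate 5 was at -0.57 for Saa3, and the other 8 arrays were at 3.49 to 5.14. Ccl4, below all vehicle arrays at 18 µg, rose by 2.22 (adjusted p = 3.51e-05 in limma), and all 10 arrays of 162 µg lay above all 10 of 18 µg. Against vehicle Ccl4 differed by -0.75 at 18 µg, by 0.65 at 54 µg and by 1.47 at 162 µg, comparisons that share the vehicle arrays. Il1b rose by 1.26 and Hmox1, the haem-degrading enzyme, by 0.54. Of 19 measured neutrophil markers 10 rose, among them Clec4d by 0.95 and Csf3r, the G-CSF receptor, by 0.70, and of 16 CC chemokines 9 rose. At 18 µg the same lists had medians of 0.01 and 0.00 and no called member.

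The genes that led at 18 µg took several courses with dose. Per1 fell by 1.02 between 18 and 162 µg (adjusted p = 0.000402 in limma), and its difference from vehicle was 0.85, 0.46 and -0.17 at the 3 doses. Klf4 fell by 0.73, Klf6 by 0.28 and Herpud1 by 0.35. The differences of Dusp1 from vehicle were 1.26, 1.12 and 1.11, those of Nfkbia 0.47, 0.58 and 0.59, and those of Cyp1a1 -0.73, -0.54 and -0.83. The 3 comparisons share the vehicle arrays. Between 162 and 18 µg directly, Dusp1 differed by -0.15 (adjusted p = 0.866), Nfkbia by 0.12 (adjusted p = 0.744) and Cyp1a1 by -0.10 (adjusted p = 0.826) in limma. The circadian list fell in 8 of 20 members and rose in 2 between 18 and 162 µg, where 1.37% of all genes fell and 3.89% rose. Over all genes, median centring of each array in place of loess left 72 lower calls instead of 241. Dbp, a clock output factor, fell by 1.32, with all 10 arrays of 162 µg below all 10 of 18 µg, and Hlf, Nr1d2 and Ciart fell by 0.72, 0.66 and 0.49. Arntl, the activator BMAL1, rose by 0.61. At 18 µg the list's median was 0.08, Dbp was at 0.30, and the groups of Dbp overlapped. The hour of collection was not given in the sources used here.

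Among genes lower at 162 µg than at 18 µg, Cidec, a lipid droplet protein, fell by 1.02, Fabp1, a fatty acid binding protein, by 0.95 and Gsta1, a glutathione transferase, by 0.91. Against vehicle at 18 µg they were at 0.00, -0.42 and 0.37, with no call. Gsta1 at 18 µg had 1 array far above the others, NRCWE-001 replicate 2 at 2.66, and its difference was 0.11 without the 2 arrays of high muscle markers. With the scanner software's processed signals the calls of Cidec and Fabp1 were lost, with adjusted p of 0.949 and 0.94 in limma. The call of Fabp1 was lost in 7 further settings, 4 of them with a single array left out, at adjusted p of 0.0504 to 0.111.

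**Figure D4:**
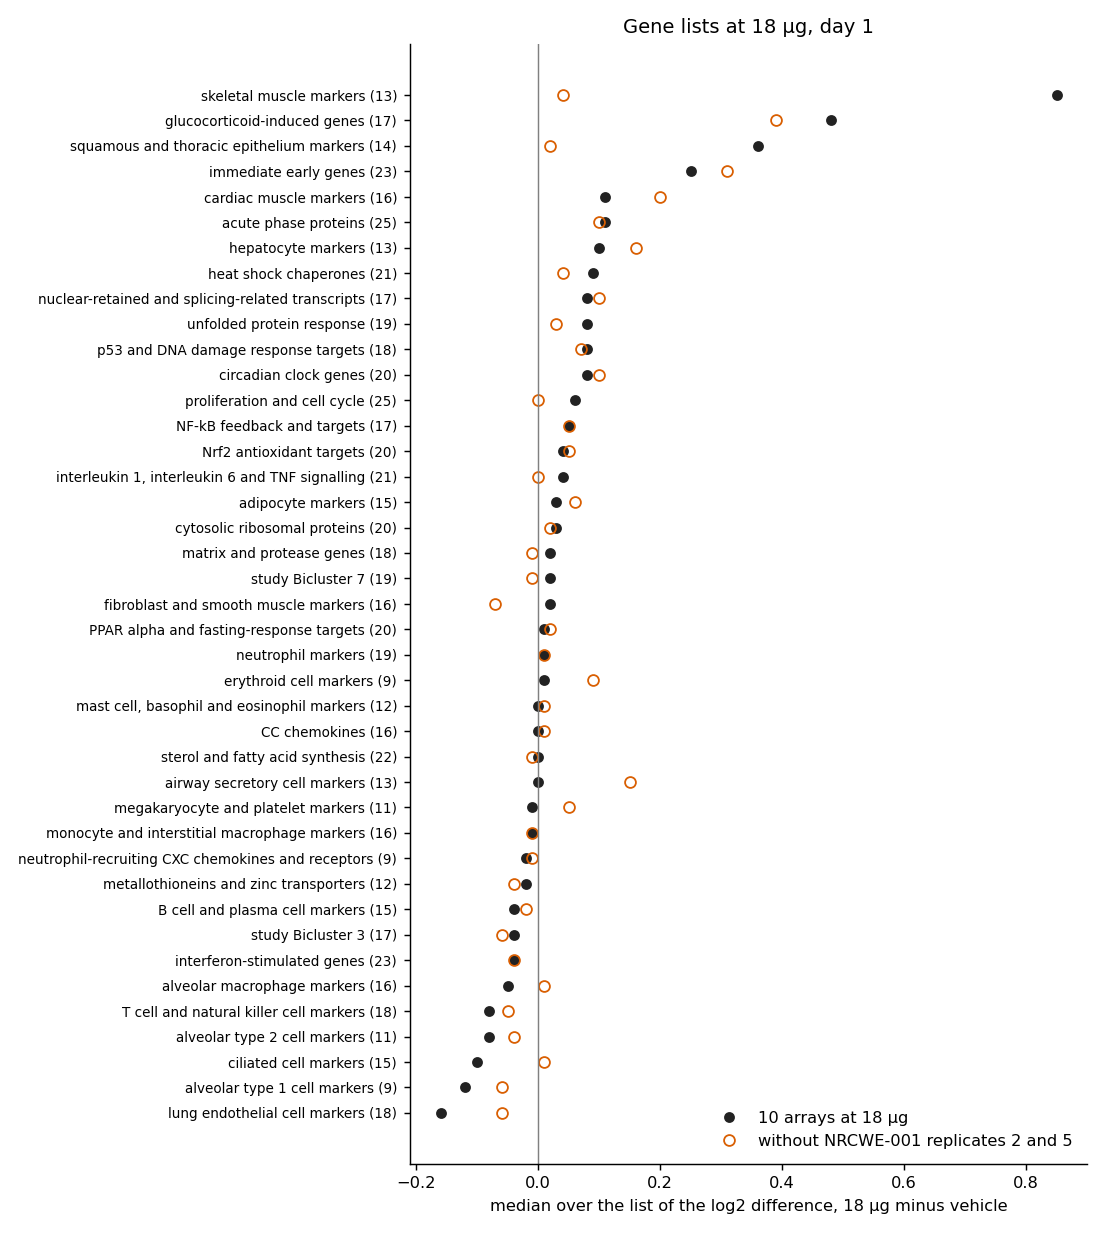
Median difference, 18 µg minus vehicle on day 1 (log2), of each gene list, for all 10 exposed arrays and without NRCWE-001 replicates 2 and 5. The glucocorticoid-induced list stands at 0.48 and 0.39, while the skeletal muscle list moves from 0.85 to 0.04 and the squamous list from 0.36 to 0.02.

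Inflammatory lists were otherwise near 0 at 18 µg. The CC chemokines had 7 of 16 higher with a median of 0.00, and the neutrophil-recruiting CXC chemokines and receptors 4 of 9 with a median of -0.02. Interleukin 1, interleukin 6 and TNF signalling genes had 13 of 21 higher and a median of 0.04, and Il1b the largest of the differences, 0.39. NF-kB feedback genes and targets had 9 of 17 higher and a median of 0.05, with Nfkbia as the member of unadjusted p below 0.05. Interferon-stimulated genes had 8 of 23 higher and a median of -0.04, and Irf1, an interferon-induced transcription factor, was at -0.24 with an unadjusted p of 0.00913 in limma. Among the CC chemokines Ccl22 had an unadjusted p of 0.0308 on the lower side, but it was well above background on no vehicle array. With the slide as a block the CC chemokines had 12 of 16 higher with a median of 0.13, and the interferon-stimulated genes 14 of 23 with 0.05. Neutrophil markers had 11 of 19 higher. Clec4d, a C-type lectin of neutrophils and monocytes, was at 0.41, S100a8 at 0.02 and S100a9 at -0.19. Alveolar macrophage markers had 6 of 16 higher with a median of -0.05, and T and natural killer cell markers 3 of 18 with a median of -0.08. B cell markers had 4 of 15 higher and a median of -0.04, and monocyte markers 8 of 16 and -0.01.

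Stress lists of other kinds were also close to 0. The Nrf2 antioxidant targets had 17 of 20 higher, with a median of 0.04 and no unadjusted p below 0.05. The unfolded protein response genes had 12 of 19 higher and a median of 0.08, with Herpud1 as the member of small p. Heat shock chaperones had 15 of 21 higher and a median of 0.09, of which the near-identical Hspa1a and Hspa1b cannot be separated with certainty. Targets of p53 had 14 of 18 higher and a median of 0.08. Of them 2 higher and 1 lower had an unadjusted p below 0.05, where 1.41% and 1.07% of all genes did. With the slide as a block 5 higher and 1 lower did, against 656 and 402 of all 17628 genes. The heat shock list had 1 such higher member, and 4 with the block. Proliferation genes had 16 of 25 higher and a median of 0.06, and matrix genes 10 of 18 and 0.02. Mt2, a metallothionein with a close copy in Mt1, differed by 0.58 while its list had a median of -0.02. It stood at -0.08 on NRCWE-001 replicate 2 and at -3.43 to -2.33 on the other 9 exposed arrays, and its difference was 0.30 without that array and 0.39 without both arrays of high muscle markers. PPAR alpha targets, sterol genes and ribosomal protein genes had medians of 0.01, 0.00 and 0.03. The bicluster lists 3 and 7 that the study derived from lung disease data had medians of -0.04 and 0.02 at 18 µg, and with the slide as a block the former had 14 of 17 higher and a median of 0.10. Cdkn1a was the single member of the former with an unadjusted p below 0.05. It was highest on NRCWE-001 replicate 2, at -0.42, and its p was not below 0.05 without the 2 arrays of high muscle markers.

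Markers of the lung's own structural cells lay slightly below vehicle. Of the endothelial markers 17 of 18 were lower with a median of -0.16, of the alveolar type 1 markers 9 of 9 with a median of -0.12, of the alveolar type 2 markers 10 of 11 with a median of -0.08 and of the ciliated markers 12 of 15 with a median of -0.10. None was called. Without the 2 arrays of high muscle markers these medians were -0.06, -0.06, -0.04 and 0.01, and with the slide as a block they were -0.02, -0.01, -0.01 and -0.03. The skeletal muscle list had 13 of 13 higher with a median of 0.85, which was 0.04 without those arrays. The squamous list had 14 of 14 higher with a median of 0.36, which was then 0.02. Of the 11 genes that differed by more than 1, 7 besides Acta1, among them Tnnc2, Tnnt3 and Mb, are muscle genes with the highest value in NRCWE-001 replicate 2 or 5. Without both arrays Acta1, Tnnc2, Tnnt3 and Myl1 were at 0.17, 0.12, 0.14 and 0.09. Sln, Mb, Ckmt2 and Pgam2 were still at 1.21, 0.86, 0.54 and 0.35. On NRCWE-001 replicates 1, 3 and 4 Sln was at 5.31, 3.16 and 4.26. It was at 6.13 on vehicle replicate 5 and between -0.06 and 0.31 on the other vehicle arrays. Cardiac markers averaged 0.14, -0.04, 0.07, -0.05 and 2.56 on the vehicle arrays and 2.1, 1.79, 0.87, 1.38 and 1.2 on the NRCWE-001 arrays. With NRCWE-002 they averaged -0.03, -0.09, -0.08, -0.04 and 1.18. Their median difference was 0.11, and 0.2 without the 2 arrays of high muscle markers. The part of these tissues in the other differences was not tested beyond leaving out those 2 arrays. NRCWE-001 replicate 5 and NRCWE-002 replicates 2 and 3 were scanned on the same day, without any vehicle array. On them 84.5%, 83.9% and 85.3% of spots were well above background, against 62.5% to 73.3% on the others of the 15 arrays. The part of that day in the counts of exposed arrays well above background was not tested. The ciliated means of the arrays scanned that day were 1.66, 1.64 and 1.68, against 1.99 to 2.21 with vehicle. Their endothelial means were 3.66, 3.94 and 3.80, and that of NRCWE-001 replicate 2 was 3.70, against 4.11 to 4.38 with vehicle. The part of the scan day in these markers was not tested.

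The particles were also taken one at a time. NRCWE-001 against vehicle gave 0 called genes (0%) and 865 at an unadjusted p below 0.05 (4.91%), with a smallest adjusted p of 0.217. The unadjusted count was 395 without replicate 2 and 364 without both arrays of high muscle markers. NRCWE-002 gave 0 called (0%) and 518 unadjusted (2.94%), with a smallest adjusted p of 0.254. The particles were then compared directly at the matched dose and time over all 17628 genes, as 1 pair. Of these arrays only NRCWE-001 replicate 5 and NRCWE-002 replicate 3 shared a slide across the particles. The particle comparison is therefore largely confounded with slide and scan day. No gene was called (0%), 1153 had an unadjusted p below 0.05 (6.54%), 821 of them lower with NRCWE-002 (4.66%) and 332 higher (1.88%), and the smallest adjusted p was 0.0994. Without NRCWE-001 replicate 2 the unadjusted count was 643, without replicate 5 it was 1448 and without both of these arrays 1056. The smallest adjusted p belonged to Meg3, a maternally expressed long non-coding RNA, at 0.43, 0.44, 0.38, 0.40 and 0.33 with NRCWE-001 and at 0.14, 0.02, 0.00, 0.22 and -0.05 with NRCWE-002. The particle groups did not overlap, as was so for 344 of the 17628 genes. With NRCWE-002 Meg3 was lower by 0.33 with a 95% interval of -0.46 to -0.20. In the deposited table of ratios Meg3 was lower by 0.47 and was called, with an adjusted p of 0.00643 in limma.

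Mthfsd, a gene of the folate enzyme family, averaged -0.78 with NRCWE-001 and -1.26 with NRCWE-002, and Mlxipl, the carbohydrate response factor ChREBP, 0.95 and 0.30. Neither gene's particle groups overlapped. Mlxipl was highest on NRCWE-001 replicates 1 and 2, at 1.44 and 1.21. Serpinb2, plasminogen activator inhibitor 2, was at 1.5, 1.59, 0.00, -0.04 and 0.53 with NRCWE-001, and all NRCWE-002 arrays lay between -0.09 and -0.04. The particle difference of -0.78 rested on 3 arrays, and the gene was well above background on 1 vehicle and 6 exposed arrays. For Dusp1, NRCWE-002 minus NRCWE-001 was 0.40 with a 95% interval of -0.39 to 1.19. For Per1 it was -0.45 (-1.0 to 0.11), for Tsc22d3 -0.25 (-0.69 to 0.19), for Nfkbia -0.03 (-0.38 to 0.32) and for Cyp1a1 -0.28 (-0.68 to 0.12). For Nr4a1 it was 1.16 (0.36 to 1.97), for Egr1 1.13 (0.40 to 1.86) and for Fos 0.86 (0.25 to 1.47), each with an adjusted p of 0.599 in limma. For Saa3 the interval of -3.30 to 1.29 leaves wide room on both sides.

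Vehicle and 18 µg arrays shared a slide in 5 cases, 3 with NRCWE-001 and 2 with NRCWE-002, and the consensus correlation of arrays on a slide was 0.47. With the slide as a fixed block 1 gene was called (0.00567%), Arhgap26, a GTPase-activating protein. Arhgap26 was at 0.63, 0.63, 0.79, 0.74 and 0.85 with vehicle and at 0.69 to 1.14, median 0.96, after exposure. The groups overlapped, with 6 of 10 exposed arrays above every vehicle array and a difference of 0.20 without the block. With the block the difference was 0.29 (adjusted p = 0.000655 in limma), and on the 5 shared slides it was 0.34, 0.20, 0.31, 0.34 and 0.29. For NRCWE-001 alone the same block called 4 genes, Arhgap26, Tent5b, the lysosomal transporter gene Spns1 and Borcs5, a subunit of the complex that positions lysosomes. Without the 2 arrays of high muscle markers that block called 0 genes for NRCWE-001, with 789 at an unadjusted p below 0.05, and in the pooled comparison it still called 1 gene, Arhgap26.

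Same-slide differences of the other leading genes were as follows. Dusp1 was higher on 4 of 5 slides, by 1.66, 1.22, 1.16 and 0.83, and at -0.09 on the slide of vehicle replicate 2, which held NRCWE-001 replicate 2. Per1 was higher on 4 of 5 slides, from 0.34 to 1.44, and at -0.37 on the fifth. Tsc22d3, Nfkbia, Tent5b, Pim3, Herpud1 and Glul were higher on all 5, and Cyp1a1, Efna1, Ier5, Ccl4, Ifng and Fli1 lower on all 5. Saa3 was at 2.68, 1.64, -0.37, 1.76 and 0.53, so that 1 slide went against the other 4, and with the block its difference was 2.25 with an adjusted p of 0.77.

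**Figure D5:**
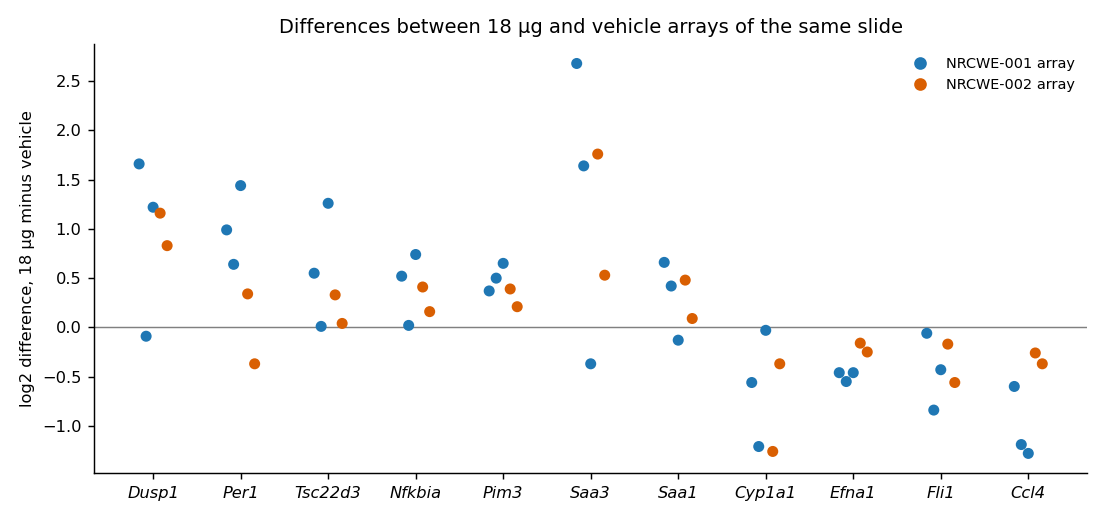
Same-slide difference, 18 µg minus vehicle (log2), for 11 genes on the 5 slides that held an array of each, with 1 point per slide. Pim3 spans 0.21 to 0.65, while Saa3 spans -0.37 to 2.68.

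On day 28 the 18 µg group held 10 arrays and the vehicle group 4, all from other mice. The low-dose difference was compared between the days with no gene called (0%), 508 at an unadjusted p below 0.05 (2.88%) and a smallest adjusted p of 0.37. Dusp1 differed from vehicle by 0.66 on day 28 and by 1.26 on day 1, and Per1 by 0.95 and 0.85. Tsc22d3 differed by 0.59 and 0.60, Nfkbia by 0.41 and 0.47, Herpud1 by 0.41 and 0.35 and Cyp1a1 by -0.52 and -0.73. Saa3 differed by 1.44 on day 28 and by 1.00 on day 1. Ccl4 was at 0.04 on day 28 and -0.75 on day 1, and Ifng at -0.20 and -0.33.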

How the data were processed

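The authors deposited the Agilent Feature Extraction output of 69 two-colour arrays (a whole-genome mouse design with probes annotated on mm9) with the median spot and background intensity of each channel, and a table of log2 ratios per array whose normalization steps are not given in the sources used here. Each lung RNA (Cy5) shared its array with the reference RNA (Cy3). From the intensities, background was corrected with normexp (offset 50), arrays were normalized by loess and probes were kept when well above background on at least 4 arrays, which left 36452 of 41174 probes. Symbols came from RefSeq (GRCm38.p6), and probes of a gene were averaged to 17628 genes. One limma 3.58.1 model in R 4.3.3 held the 14 groups of particle, dose and day, with 1 residual spread over 69 arrays, and each comparison was a contrast of it. On the 15 arrays of 18 µg and vehicle the precision is limited by their number. For 11 single genes an exact permutation test over arrays was added. Promoter sequences are those of RefSeq in GRCm38.p6, searched on both strands over 250 bases before the start.

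The genes named were those whose 10 exposed arrays did not overlap the vehicle arrays (up to 10 each way), the 3 members of each list with the largest test statistic, the 4 genes of smallest p between the particles, the called genes with slide as a block, 11 genes known from higher doses and the leading genes between 162 and 18 µg. Genes of small p in the low-dose contrast, in the glucocorticoid or immediate early list, or called between 54 and 18 µg were added after their values were seen. The group and all gene lists were chosen with earlier results of these data known. Alternatives were another normalization, background correction, probe filter, slide and scan day as blocks, the deposited table, the compared arrays alone and leaving out each array. The scripts were tested on simulated data.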

Additional observations from a re-analysis of the deposited data

Results flagged for a closer look

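For each of 168 named genes, the highest or lowest of the 5 arrays of vehicle, NRCWE-001 and NRCWE-002 was set against Dixon's 95% critical value of 0.71 for the gap to the nearest array over the range. Of 504 gene and group pairs 37 (7.34%) lay past it, where chance gives about 1 in 20. NRCWE-001 replicate 2 accounted for 11, all high. On it the squamous genes Krt13, Krt6a and Trp63 were at 5.77, 1.92 and 1.92, the small heat shock gene Hspb1 at 3.24, Hspa1b at 0.52, Gsta1 at 2.66, the decoy receptor Il1r2 at 2.21, arginase, Arg1, at 2.15, the metallothionein Mt1 at -1.02, G6pdx at -0.12 and Saa2 at 0.28. The part of the squamous and muscle tissue of this array in the other values was not tested.

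On the other NRCWE-001 arrays, Pim3 was high at 0.80 and Agap2 low at -0.31 on replicate 4, and Mdn1 was high at -0.35, Cxcl1 high at -3.08 and Slc26a4 low at 0.91 on replicate 5. Mcpt4, a mast cell protease, was high at 1.01 and Pf4, platelet factor 4, high at 0.65 on replicate 1, and Tat, tyrosine aminotransferase, high at 1.16 on replicate 3. On NRCWE-002 replicate 5 the clock genes Per1 and Cry2 were low, at -0.53 and 0.39, and the muscle genes Sln, Ckmt2 and Myl1 high, at 4.77, 1.45 and -1.09. On NRCWE-002 replicate 1, Mt2 was high at -2.58, Eml4 high at -0.12 and Tnfrsf9 low at -1.13. On vehicle replicate 5, Sln, Ckmt2 and Myl1 were high at 6.13, 3.65 and 0.10, Asphd1 high at -0.01 and Vegfa low at 1.41. Of the other vehicle arrays, replicate 3 was high for Gabrp at 4.78 and for Csf3 at 0.15, which is not well above background, replicate 2 high for Nfkbiz at -1.04, replicate 4 high for Itga2b at 0.24 and replicate 1 low for Apln at 0.76.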

How the results depend on the processing

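The count of 0 called genes between 18 µg and vehicle was kept by median centring, both other background corrections, the deposited table, the processed signals, both probe filters, single probes, the random slide block, the same-slide arrays and the arrays of the compared groups alone. It was 1 with slide as a fixed block, with scan day as a block, with the deposited table and a slide block, and without the 2 arrays of high muscle markers plus a slide block. The last 2 combinations, and leaving out the 2 arrays, were chosen after seeing the data. For NRCWE-001 the counts were 4 with the slide block, also in the deposited table, 1 with the random slide block and 2 with scan day. For NRCWE-002 they were 1 with the slide block, alone, in the deposited table and without the 2 arrays. The particle difference gave 1 call in the deposited table, 1 in the compared arrays alone and 2 over single probes. Between 54 and 18 µg the counts were 244 with the slide block, 191 with the random block, 84 with scan day, 1 with normexp fitted on all spots, 13 in the deposited table, 4 in the compared arrays, 311 in the deposited table with the slide block, 5 without the 2 arrays and 389 without them with the slide block. Between 162 and 18 µg they were 2103, 1965 and 2413 with slide, random slide and scan day, 1849 in the compared arrays, 2171 in the deposited table with the slide block and 2583 without the 2 arrays with the slide block. Median centring gave 714 higher and 72 lower there, against 685 and 241. Leaving out each array gave 0 to 0 calls for the pooled comparison and the day comparison, 0 to 1 for each particle and for their difference, 1 to 37 between 54 and 18 µg and 660 to 1184 between 162 and 18 µg. The single calls came without NRCWE-001 replicate 3 or 4 or NRCWE-002 replicate 1 for the particles, and without NRCWE-001 replicate 3 or 4 or NRCWE-002 replicate 4 for their difference. The cause was not tested.

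Of 4757 values of 159 genes between 18 µg and vehicle, 55 changed direction, in 30 genes, and none of these was called. With slide as a block Eln was at 0.04, Sftpd 0.09, Scgb1a1 0.05, Aldh1a1 -0.05 and Cd22 0.01, and with the random block Sftpd was at 0.01 and Aldh1a1 at -0.01. With scan day Eln was at 0.03, Sftpd 0.08, Aldh1a1 -0.02 and Cd22 0.02. On the same-slide arrays Cxcl1 was at -0.06, Csf3 -0.02, Scgb1a1 0.12, Tppp3 0.06, Cd22 0.01 and Il4 -0.02. In the deposited table Epx was at 0.01 and Il4 at -0.06, and with the slide block Kif11 was at -0.04, Sftpd 0.02, Scgb1a1 0.02, Aldh1a1 -0.07 and Il4 -0.07. In the processed signals Olfr1377 was at 0.29, Arg1 -0.07, Mcpt4 -0.07, Epx 0.37 and Il4 -0.20, and with no background correction Il4 was at -0.03. Without the 2 arrays of high muscle markers Cxcl5 was at -0.01. With the slide block added, Acta1 was at -0.71, Tnnt3 -0.46, Krt13 -0.37, Myl1 -0.34, Myh1 -0.29, Plin4 -0.24, Cpt1b -0.06, Cdkn3 -0.05, Kif11 -0.03, Car3 -0.03, Csf3 -0.01, Arg1 -0.01, Sftpd 0.11, Scgb1a1 0.07, Cd22 0.03, Slc34a2 0.02, Epor 0.02, Aqp5 0.01, Kdr 0.01, Prf1 0.01 and Vwf 0.01. Leaving out single vehicle arrays put Cxcl5 between -0.03 and -0.01 and Il4 at -0.01. By replicate number no paired analysis was possible because the labels share no numbers between groups, and the slide block and same-slide arrays above pair arrays by slide instead. Olfr1377, Csf3, Epx and Cxcl5 were well above background on no vehicle array, so their values here carry only a sign near background, and without a dye swap dye bias is not separated from level.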

Other observations

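Hepatocyte markers stood out on 1 exposed array. Their mean was 1.28 on NRCWE-001 replicate 3, where Alb, serum albumin, was at 2.87, against 0.49 to 0.53 on the vehicle arrays, where Alb was at 0.22 to 0.62. Sln, a regulator of the sarcoplasmic calcium pump, was at 6.13 on vehicle replicate 5 and at 4.77 on NRCWE-002 replicate 5, the arrays whose cardiac marker means, 2.56 and 1.18, were the highest of their groups. Of the erythroid markers 5 of 9 were higher at 18 µg with a median of 0.01, and of the adipocyte markers 10 of 15 with a median of 0.03. Platelet markers had 3 of 11 higher and a median of -0.01, mast cell, basophil and eosinophil markers 6 of 12 and 0.00, and airway secretory markers 7 of 13 and 0.00. Fibroblast and smooth muscle markers had 9 of 16 higher and a median of 0.02, cardiac markers 11 of 16 and 0.11, hepatocyte markers 10 of 13 and 0.10, and nuclear-retained and splicing-related transcripts 13 of 17 and 0.08. None of these members was called. In the last list Rsrp1, an arginine- and serine-rich protein gene, differed by 0.49 at 18 µg and fell by 0.86 between 18 and 162 µg (adjusted p = 0.000182 in limma).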
